A study of Caenorhabditis elegans with 36 samples.

Results

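The 10 mRNAs described here encode proteins that the *C. elegans* germ line makes and stores for oogenesis and for the first cell divisions of the embryo: *oma-1*, *oma-2*, *gld-1*, *mex-3*, *pos-1*, *spn-4*, *glp-1*, *rme-2*, *puf-5* and *lin-41*. They were picked by name from the 41875 loci of the table, and each of the 10 names matched exactly 1 locus. The animals were *ppp-1(wrm10)* mutants, *ppp-1(wrm15)* mutants and WT (Bristol N2) animals, all gravid and at day 1 of adulthood, untreated, on OP50 bacteria. Both are mutations in the gene of the gamma subunit of eIF2B, the nucleotide exchange factor of the initiation factor eIF2, and each is 1 outcrossed strain from a chemical mutagenesis screen. From each genotype, total lysate RNA, RNA of the 80S monosome fraction and RNA of the polysome fraction without disomes were sequenced, with 4 libraries for each of the 9 groups by the labels. The deposited values are 1 pooled FPKM (fragments scaled to transcript length and, by the name of the unit, to mapped reads) per locus and group. Values per library and the authors' own test columns were not used here, so no spread between replicates and no test is given, the depth of each library is unknown, and every difference below is a size without an error.

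In the gonad of the worm, transcription is shut off as oocytes mature, and much of the timing of protein production is set by proteins that bind the 3′UTRs of stored mRNAs and hold them silent until a given stage. GLD-1, a KH-domain protein of the meiotic region, is followed in growing oocytes by the PUF protein PUF-5, the TRIM-NHL protein LIN-41 and the paired CCCH zinc finger proteins OMA-1 and OMA-2. MEX-3 (KH domains), POS-1 (CCCH zinc fingers) and SPN-4 (an RNA recognition motif) regulate maternal mRNAs in the early embryo, while GLP-1 is the Notch receptor of germ-line stem cells and of early blastomeres, and RME-2 is the receptor through which oocytes take up yolk. Several of these mRNAs are themselves targets of others in the group, as *rme-2* and *glp-1* are of GLD-1.

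The 10 loci lie on chromosomes I to V of the WBcel235 genome build, and all are annotated as protein-coding. The regulators of the embryo are *pos-1* (V, 8414086 to 8415254), *spn-4* (V, 6783187 to 6784903) and *mex-3* (I, 127285 to 134270). Of the oocyte repressors, *oma-1* spans 8888976 to 8890999 on IV, *oma-2* 8029439 to 8031214 on V, *gld-1* 7695681 to 7698222 on I, *puf-5* 8575541 to 8577787 on II and *lin-41* 9334800 to 9342496 on I. The receptors are *glp-1* (III, 9092241 to 9099698) and *rme-2* (IV, 5470026 to 5473174). The region listed for *glp-1* runs 1560 bases past the end of the annotated gene and covers the gene ZK507.1 on the opposite strand, which has a value of its own there (4.59 FPKM in WT total RNA, against 59.2 for *glp-1*). Whether the reads were counted by strand is not given in the sources used here. No other member shared more than 8 bases with another gene.

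The annotated transcripts were longer than those of most genes. In the annotated transcript with the longest coding sequence, the 3′UTR had a median of 418.5 bases over the 10 genes, against 124.0 bases over 16264 other protein-coding genes with an annotated 3′UTR (middle 50% from 70.0 to 235.0). It was longer than that median in 9 of 10 and ran to 1157 bases in *lin-41* and 812 in *gld-1*. The exception was *rme-2*, with 86 bases. Coding sequences had a median of 1359 bases, against 987.0 bases over 19975 other genes, and whole transcripts one of 2050.5 bases, against 1246 over the 16264, and in each of these 9 of 10 members also lay above. This is a description of annotated lengths, and FPKM values are already divided by transcript length.

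All of the 10 mRNAs were abundant in total RNA, where each stood above the 83rd percentile of the 12701 loci with at least 1 FPKM in WT. By FPKM, which is a level per length, they fell into a high, a middle and a low group. The high one held *pos-1* with 364 FPKM in *ppp-1(wrm10)*, 387 in *ppp-1(wrm15)* and 352 in WT animals, and *spn-4* with 356, 372 and 369 FPKM in that order of genotypes. It also held *gld-1* with 331, 356 and 346 FPKM, and *rme-2* with 323, 352 and 326 FPKM. The ranges over the genotypes overlapped between neighbours among these 4 genes. Next came *puf-5* (229.6 FPKM in *ppp-1(wrm10)*, 262 in *ppp-1(wrm15)* and 249.6 in WT), *mex-3* (151, 175 and 149) and *oma-2* (116, 122 and 97.2), whose ranges did not overlap. At the low end were *lin-41* (85.1, 92.2 and 82.8 FPKM), *oma-1* (79.5, 84.6 and 75.2), which overlapped with *lin-41*, and *glp-1* (46.9, 45.5 and 59.2). OMA-1 and OMA-2 are paralogs, and how reads matching both genes were divided is not given in the sources used here.

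**Figure D1:**
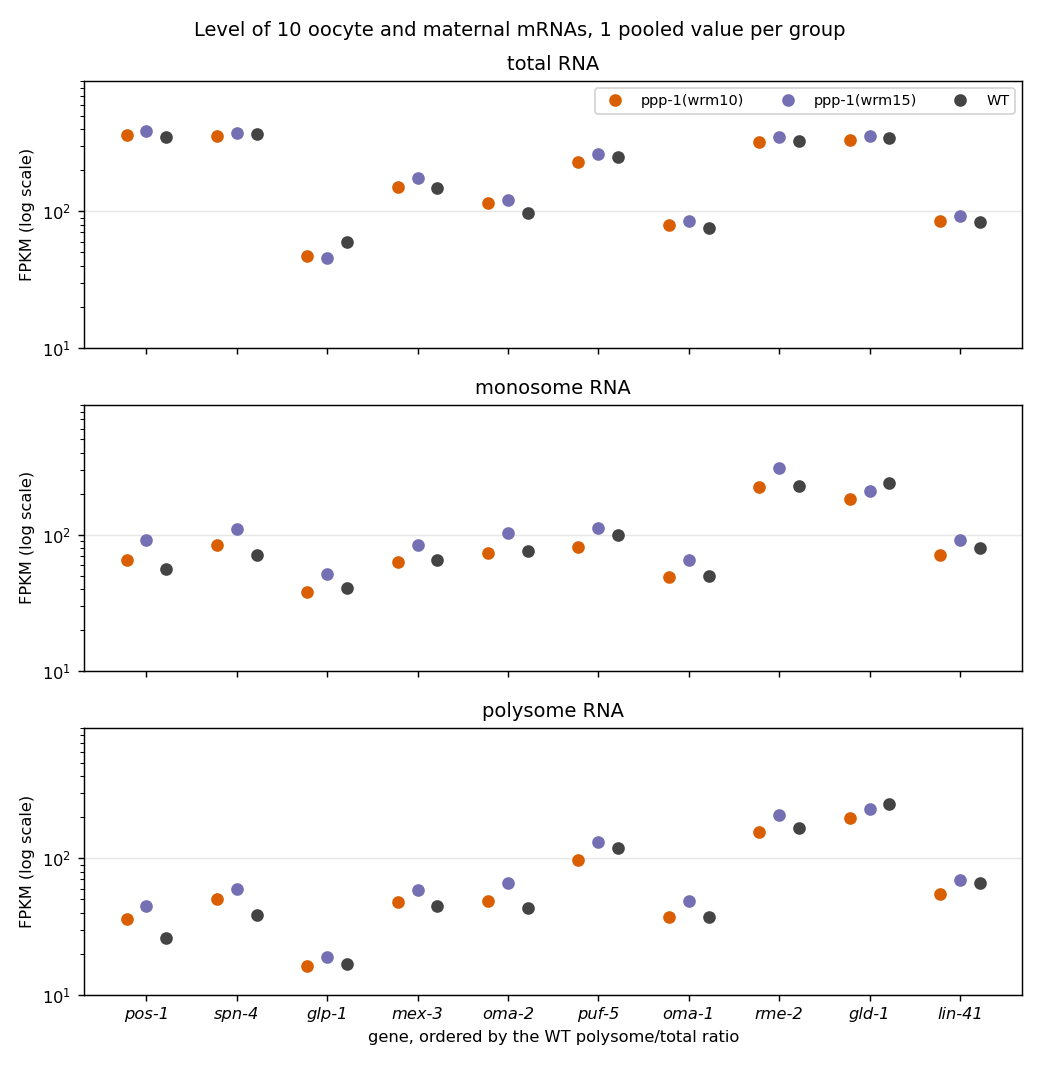
FPKM (log axis) of the 10 genes in total, monosome and polysome RNA of *ppp-1(wrm10)*, *ppp-1(wrm15)* and WT animals, each point 1 pooled value of a group, with genes ordered from the lowest to the highest WT ratio of polysome to total RNA. *pos-1* and *spn-4* lie near the top in total RNA (352 and 369 FPKM in WT) and among the lower values in polysomes (26.3 and 38.3 FPKM in WT).

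The first question was how far these mRNAs were found on ribosomes in WT animals. For each gene the polysome value was divided by the total RNA value and taken as a log2 ratio. The fractions are scaled separately, so a ratio is relative to the other mRNAs of the fraction and is no share of molecules. All 10 ratios lay below 0, with a median of -1.13, against a median of 0.15 over the 11731 other loci with at least 1 FPKM in both groups. At least 1.5-fold less in polysomes than in total RNA was found for 8 of the 10 mRNAs, against 24.8% of all loci tested, and at least 1.5-fold more for none, against 27.4%.

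The lowest polysome ratios belonged to *pos-1* and *spn-4*, whose proteins act in the embryo. *pos-1* had 26.3 FPKM in polysomes and 55.9 FPKM in monosomes, against 352 FPKM in total RNA. Its polysome value was thus 7.46% of the total value (log2 ratio -3.75, 13.4-fold lower), and 0.801% of loci had a lower ratio. *spn-4* had 38.3 FPKM in polysomes and 70.9 FPKM in monosomes, against 369 FPKM in total RNA, so that polysomes held 10.4% of the total value (9.62-fold lower) and 1.27% of loci lay below it. These are the most abundant and the least polysome-associated mRNAs of the 10. *mex-3*, with 44.9 FPKM in polysomes and 65.9 FPKM in monosomes against 149 FPKM in total RNA, was 3.31-fold lower in polysomes. The Notch receptor mRNA *glp-1* had 16.8 FPKM in polysomes and 40.4 FPKM in monosomes against 59.2 FPKM in total RNA, a 3.52-fold lower value in polysomes.

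The mRNAs of the oocyte repressors and of the yolk receptor stood higher. *oma-2* was 2.25-fold, *puf-5* 2.11-fold, *oma-1* 2.01-fold and *rme-2* 1.97-fold lower in polysomes than in total RNA, and between 12.5% and 16.0% of loci had lower ratios. *gld-1* had 249.6 FPKM in polysomes and 239 FPKM in monosomes against 346 FPKM in total RNA, or 72.2% and 69.1% of the total value. *lin-41* had 66.1 FPKM in polysomes and 80.7 FPKM in monosomes against 82.8 FPKM in total RNA. The ratios of *gld-1* (-0.47) and *lin-41* (-0.32) lay within the middle 50% of other loci, which ran from -0.58 to 0.63, and were the only ones of the 10 to do so.

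The monosome over total RNA ratios of the 10 were also below 0, except that *lin-41* was at 0.01 when centred on all genes tested. Both ratios share the total RNA value. In monosomes over total RNA, *pos-1* (-2.66), *spn-4* (-2.38), *puf-5* (-1.33), *mex-3* (-1.18) and *oma-1* (-0.60) were at least 1.5-fold lower, 5 of 10 against 20.9% of all loci, and the median was -0.58, against -0.04 over 12012 other loci. *glp-1* (-0.55) and *oma-2* (-0.37), low in polysomes, lay closer to 0 in monosomes. Centred on the germ granule and meiotic axis genes described below, the monosome median was -0.15, and *oma-2* (0.06) and *lin-41* (0.39) lay above 0. Lighter gradient fractions, in which mRNA without a full ribosome would sediment, were not analysed here.

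Between the ribosome fractions the balance differed from gene to gene. A polysome share was computed as the polysome FPKM divided by the sum of polysome and monosome FPKM. In WT animals it was lowest for *glp-1* (29.4%), *pos-1* (32%), *spn-4* (35.1%) and *oma-2* (36.4%), the 4 mRNAs at least 1.5-fold lower in polysomes than in monosomes, against 21.1% of all loci. It was 40.5% for *mex-3*, 42% for *rme-2*, 43.0% for *oma-1* and 45.0% for *lin-41*. Only *gld-1* (51.1%) and *puf-5* (54.2%) had more in polysomes than in monosomes. *puf-5* thus combined a low recovery in monosomes (39.9% of its total value) with the highest polysome share of the 10.

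**Figure D2:**
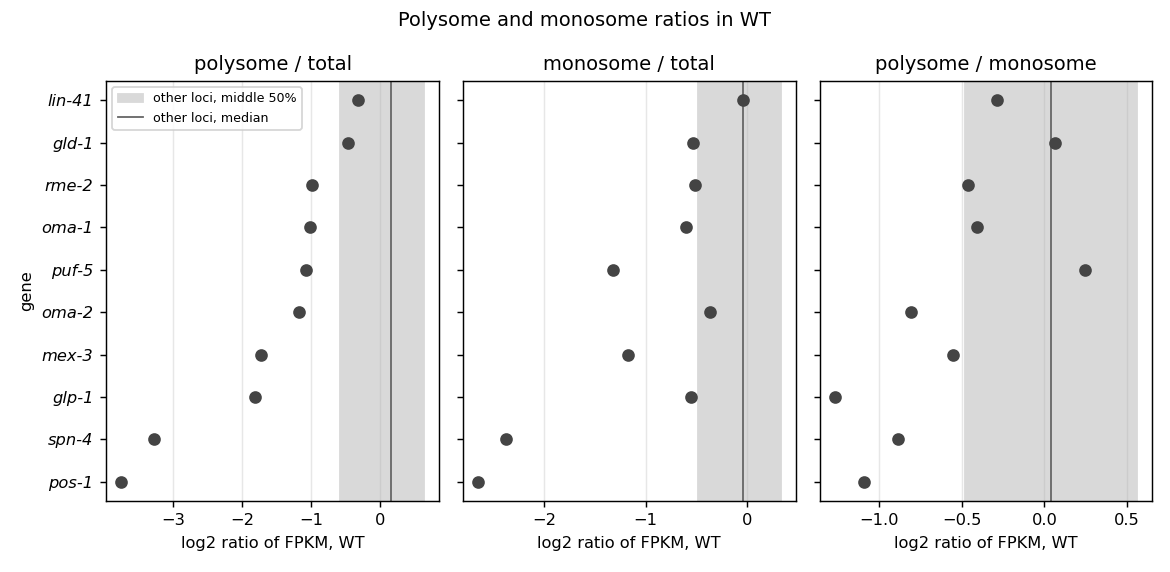
Log2 ratios of FPKM in WT animals for each of the 10 genes (points), as polysome over total, monosome over total and polysome over monosome, with the median (line) and the middle 50% (grey) of the other loci with at least 1 FPKM in both groups. *pos-1* and *spn-4* lie at -3.75 and -3.27 for polysome over total, and *gld-1* and *lin-41* at -0.47 and -0.32, inside the grey band.

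Other mRNAs known to be held by these proteins gave a similar picture in WT animals. The list was chosen by name, with earlier results of these data known, and holds 16 targets of GLD-1, OMA-1, OMA-2, LIN-41, MEX-3 or POS-1. Their median polysome ratio was -1.91, all 16 lay below 0 and 15 were at least 1.5-fold lower in polysomes, against 24.8% of all loci. The lowest was *nos-2*, a Nanos gene of the primordial germ cells, with 1.59 FPKM in polysomes against 70.0 in total RNA (-5.46), and the highest *skn-1*, the transcription factor that specifies endoderm and mesoderm (-0.33). The list of 28 other RNA-binding and translational control genes of the germ line was spread more widely. Its median was -0.26, with 11 at least 1.5-fold lower and 5 at least 1.5-fold higher in polysomes, against 24.8% and 27.4% of all loci, from *puf-6*, a PUF gene so close in sequence to *puf-7* that reads may be shared (-2.58), to *car-1*, a germ granule protein (1.08). For 10 genes of germ granules, meiotic chromosome axes and the synaptonemal complex, the median was -0.19. The ratios ran from the cohesin gene *rec-8* (-1.01) to the helicase gene *glh-1* (0.78). This list includes *syp-1*, *syp-2* and *syp-3* of the synaptonemal complex and is called the germ granule and meiotic axis genes here.

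The second question was whether either *ppp-1* allele changed these mRNAs. In total RNA, levels in the mutants stayed near those of WT animals. None of the 10 differed by 1.5-fold or more in either mutant, against 10.8% of all loci tested in *ppp-1(wrm10)* mutants and 11.2% in *ppp-1(wrm15)*. The median log2 change was 0.00 in *ppp-1(wrm10)*, and 0.12 for *ppp-1(wrm15)*, while the medians of the other loci were -0.06 and -0.04. The lowest value was that of *glp-1*, at -0.34 and -0.38, which 6.43% and 7.28% of loci undercut, and the highest that of *oma-2*, at 0.25 and 0.32. Both comparisons use the same WT value. In whole animals, a difference in the number of oocytes and one in RNA per oocyte cannot be told apart.

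In polysomes of *ppp-1(wrm10)* animals, no member differed from WT by 1.5-fold or more, against 10.7% of all loci, and the median change was -0.03, or 0.03 when centred on all genes tested. In polysomes of *ppp-1(wrm15)* animals, 3 members were higher by 1.5-fold or more, against 7.47% of all loci, none was lower by as much, against 3.29%, and the median change was 0.36, against -0.02 over the other loci. The values of 9 of the 10 mRNAs were above WT, against 45.9% of all loci. *pos-1* had 35.9 FPKM in *ppp-1(wrm10)* polysomes and 44.6 FPKM in *ppp-1(wrm15)* polysomes, against 26.3 FPKM in WT polysomes, changes of 0.45 and 0.76. *spn-4* had 50.7 and 59.7 FPKM in the mutants, against 38.3 FPKM in WT, changes of 0.40 and 0.64. These are the only members above WT by more than 0.2 in polysomes of both alleles. *oma-2* had 49.0 and 66.1 FPKM, against 43.1 FPKM in WT (0.18 and 0.62), with part of that difference present in total RNA, as given above.

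None of the remaining mRNAs differed from WT by 1.5-fold in polysomes. *oma-1* had 37.2 FPKM in *ppp-1(wrm10)* polysomes and 49.0 in *ppp-1(wrm15)* polysomes, against 37.3 in WT, and *rme-2* had 155 and 207 FPKM, against 165 in WT. *mex-3* had 47.8 and 59.0 FPKM, against 44.9 in WT. For *glp-1* the polysome values were 16.3 and 18.9 FPKM, against 16.8 FPKM in WT. The values of *gld-1* were below WT in both mutants, with 198 FPKM in *ppp-1(wrm10)* mutants and 230.2 FPKM in *ppp-1(wrm15)*, against 249.6 FPKM in WT. *puf-5* (97.9 and 131 FPKM, against 118 in WT) and *lin-41* (55.0 and 69.0 FPKM, against 66.1 in WT) were lower than WT in *ppp-1(wrm10)* mutants and higher in *ppp-1(wrm15)*.

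Monosome RNA gave similar values. No member differed by 1.5-fold or more in *ppp-1(wrm10)*, against 12.3% of all loci, while *pos-1* and *spn-4* were higher by 1.5-fold or more in *ppp-1(wrm15)*, 2 of 10 against 9.06% of all loci. *pos-1* had 65.5 and 91.6 FPKM in monosomes of the mutants, against 55.9 FPKM in WT, and *spn-4* had 84.1 and 109.9 FPKM, against 70.9 FPKM in WT. Over the 10, the median change was -0.04 for *ppp-1(wrm10)* monosomes, or 0.01 when centred on all genes tested, and 0.38 for those of *ppp-1(wrm15)*. *gld-1* was again below WT in both, with 184 and 209 FPKM, against 239 FPKM in WT, and was the only member below WT in monosomes of *ppp-1(wrm15)*.

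**Figure D3:**
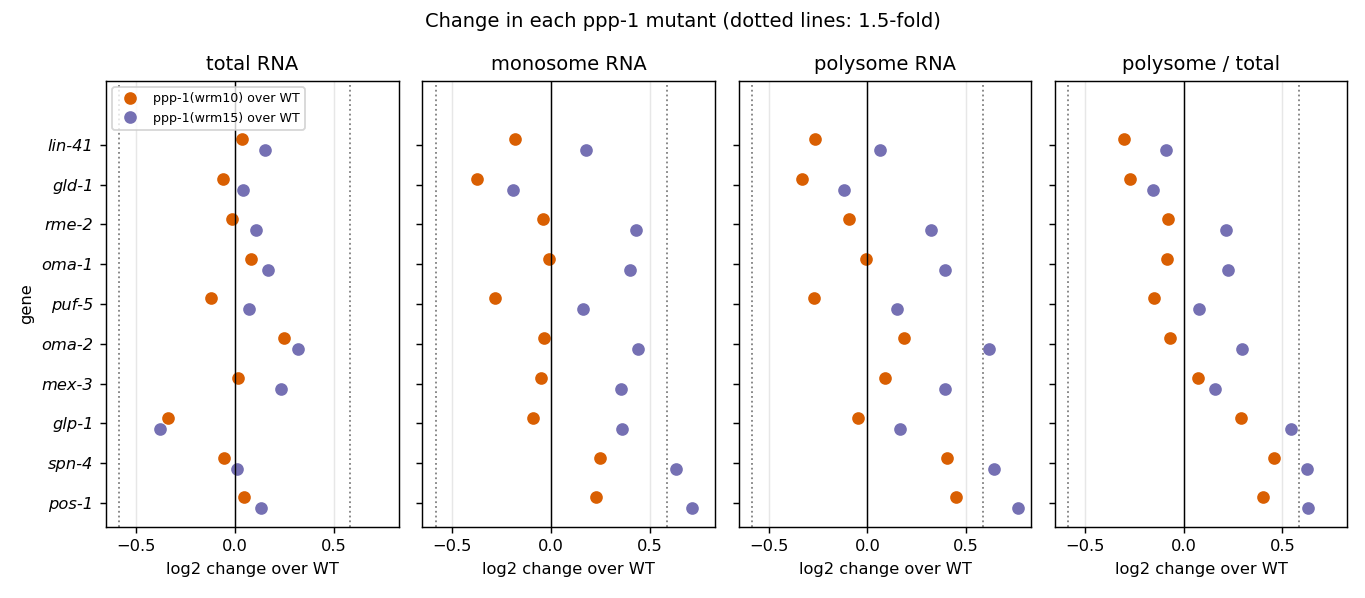
Log2 change over WT of each of the 10 genes in *ppp-1(wrm10)* (orange) and *ppp-1(wrm15)* (purple) animals, in total, monosome and polysome RNA and in the ratio of polysome to total RNA, with dotted lines at 1.5-fold. In polysomes of *ppp-1(wrm15)*, *pos-1* (0.76), *spn-4* (0.64) and *oma-2* (0.62) lie past the line, and in total RNA no gene does.

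Translational efficiency was taken, as in the study, as the polysome value over the total RNA value, and its change as the log2 ratio in the mutant minus that in WT. No member differed by 1.5-fold or more in *ppp-1(wrm10)*, against 3.80% of all loci, and the median over the 10 was -0.07, against -0.02 over the other loci. In *ppp-1(wrm15)*, *pos-1* and *spn-4* were higher by 1.5-fold or more, 2 of 10 against 1.48% of all loci, with a median over the 10 of 0.22, against 0.00 over the other loci. For *pos-1* the polysome value was 9.87% of total in *ppp-1(wrm10)* mutants and 11.5% in *ppp-1(wrm15)*, against 7.46% in WT (changes of 0.40 and 0.63). For *spn-4* it was 14.3% and 16.0%, against 10.4% in WT (0.46 and 0.63). *glp-1* followed with 34.7% and 41.5%, against 28.4% in WT (0.29 and 0.55). In this gene the lower total RNA value (changes of -0.34 and -0.38) entered the ratio. Its polysome value changed by -0.05 and 0.17, so in *ppp-1(wrm10)* the higher ratio came with no higher polysome value. Among the changes of all loci, these 3 stood at percentiles 96.4, 97.3 and 92.3 in *ppp-1(wrm10)* mutants and at 98.8, 98.8 and 98.1 in *ppp-1(wrm15)*.

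The mRNAs with the highest WT ratios, *gld-1* and *lin-41*, did not share this. The change in translational efficiency was -0.27 in *ppp-1(wrm10)* mutants and -0.16 in *ppp-1(wrm15)* for *gld-1*, and -0.30 and -0.09 for *lin-41*. For *oma-1* (-0.09 and 0.22), *oma-2* (-0.07 and 0.29), *rme-2* (-0.08 and 0.22) and *puf-5* (-0.15 and 0.08) it lay below 0 in *ppp-1(wrm10)* mutants and above 0 in *ppp-1(wrm15)*. *mex-3*, the third embryo regulator, had 0.07 and 0.16. Of the 10 changes, 7 lay above the upper quartile of other loci in *ppp-1(wrm15)* (0.13) and 1 below the lower quartile. In *ppp-1(wrm10)* these counts were 3 and 3. The WT ratio enters both the order of the genes and every change, so this order is given as a description. Even in *ppp-1(wrm15)*, the polysome ratios of *pos-1* (-3.12) and *spn-4* (-2.64) were the lowest of the 10.

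The balance between polysomes and monosomes moved little. The change in polysome over monosome was 1.5-fold or more for no member in *ppp-1(wrm10)*, against 6.17% of all loci, or in *ppp-1(wrm15)*, against 6.03%. The median change was 0.04 for *ppp-1(wrm10)* animals, against 0.00 for *ppp-1(wrm15)*, while the medians of the other loci were -0.001 and 0.02. In *ppp-1(wrm10)*, 8 of the 10 changes were above 0, against 49.9% of all loci, and in *ppp-1(wrm15)* 5, against 55.0%. For *pos-1* the polysome share was 35.4% in *ppp-1(wrm10)*, 32.7% in *ppp-1(wrm15)* and 32% in WT, and for *spn-4* it was 37.6% and 35.2%, against 35.1% in WT. The higher polysome values of both mRNAs in *ppp-1(wrm15)* were thus matched by higher monosome values, with changes of monosome over total RNA of 0.58 and 0.62. This change was larger for *glp-1* (0.74), with its lower total RNA value, and that gene's change in polysome over monosome was -0.19.

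The lists set beside the 10 genes differed in their values. Among the 16 other regulated maternal mRNAs, the median change in translational efficiency was 0.11 for *ppp-1(wrm10)* and 0.16 for *ppp-1(wrm15)*. Against 45.4% and 49.4% of all loci, 12 of the 16 were above 0 in each mutant. Only *cdc-25.3*, a CDC25 phosphatase gene held by OMA proteins and LIN-41, passed 1.5-fold, in *ppp-1(wrm15)*, at 0.52 and 0.99, with 2.68 and 3.60 FPKM in polysomes of the mutants, against 2.03 FPKM in WT. *nos-2* had 0.16 and 0.57. None of the 28 other RNA-binding genes passed 1.5-fold in either mutant, and their median was -0.13 and 0.00. For the germ granule and meiotic axis genes it was -0.02 and 0.02, all 10 between -0.11 and 0.11.

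Somatic and sperm mRNAs in the same libraries summed to less in polysomes of the mutants than of WT. A list of 12 muscle, intestine, hypodermis and neuron genes summed to 13098 FPKM in *ppp-1(wrm10)* polysomes and 14698 FPKM in *ppp-1(wrm15)* polysomes, against 16185 FPKM in WT, and to 9929 and 10430 FPKM in total RNA, against 10033 FPKM in WT. Of its 12 genes, 11 had a change in translational efficiency below 0 in *ppp-1(wrm10)* mutants and 12 in *ppp-1(wrm15)*, with medians of -0.26 and -0.18. The share of all loci above 0 was 45.4% and 49.4%. In WT, its polysome over total ratios ran from *unc-119*, a neuronal gene (-0.18), to the gut esterase gene *ges-1* (1.16). The 11 sperm genes found of 12 summed to 1138 and 1241 FPKM in polysomes of the mutants, against 1697 FPKM in WT. In both mutants 7 of the 11, the major sperm protein genes among them, were below WT in polysomes, while *spe-38* (log2 changes of 2.53 and 2.58), *spe-9* (0.88 and 0.95) and *spe-42* (0.84 and 0.58) were above it. Of all loci, 37.8% were above WT in *ppp-1(wrm10)* polysomes and 45.9% in those of *ppp-1(wrm15)*, so a majority was likewise not above WT. The lower somatic and sperm sums are found in both alleles. The part these sums have in the values of the 10 mRNAs was not tested. The median over all other loci was within 0.1 of 0 in every comparison of a mutant with WT. The gravid animals also carry embryos, in which maternal mRNAs persist. Of 11 genes first transcribed in embryos, 2 reached 1 FPKM in WT total RNA (*elt-7* and *hlh-1*), *med-1* was listed at 0 in total RNA of all genotypes, and the list summed to 8.05 and 7.84 FPKM in total RNA of the mutants, against 7.92 FPKM in WT. Most of that sum is *elt-7* (3.48 and 3.54 FPKM in the mutants, against 4.26 in WT) and *hlh-1* (1.77 and 1.64, against 1.72). The sum thus says little about the rest of the list. Of the 11, 5 were above WT in total RNA of both mutants and 4 below, and in polysomes 8 were above in both and 2 below. The 5 were *pes-10* with 1.14 and 1.11 FPKM in the mutants, against 0.817 FPKM in WT, and *ceh-51*, *end-1*, *tbx-37* and *tbx-38*, all under 0.5 FPKM in total RNA of every genotype. Their part in the values of *pos-1* and *spn-4* was not tested.

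**Figure D4:**
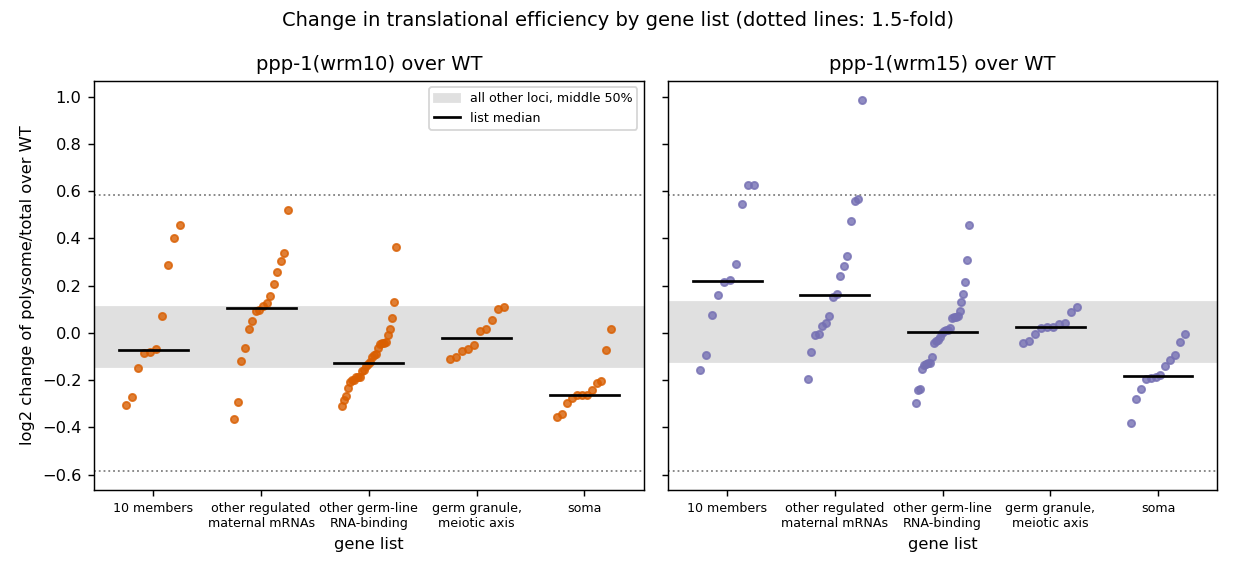
Log2 change of the polysome over total ratio in *ppp-1(wrm10)* (left) and *ppp-1(wrm15)* (right) over WT for the 10 genes and for 4 lists, each point a gene, sorted within its list, with the list median (black), the middle 50% of all other loci (grey) and 1.5-fold (dotted). The median of the 10 genes is -0.07 in *ppp-1(wrm10)* mutants and 0.22 in *ppp-1(wrm15)*, that of the somatic list -0.26 and -0.18.

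Set directly against each other, without the WT values, the alleles differed in 1 direction for all 10 mRNAs in both ribosome fractions, in a comparison chosen after the values were seen. In monosomes of *ppp-1(wrm15)*, each was higher than in *ppp-1(wrm10)*, by 0.18 (*gld-1*) to 0.48 (*pos-1*) on the log2 scale, with a median of 0.43, against 0.01 over 12179 other loci. In polysomes the differences ran from 0.21 (*gld-1*) to 0.43 (*oma-2*), with a median of 0.32, against 0.03 over 12060 other loci. Every member lay above the upper quartile of other loci in both fractions (0.13 in each). None reached 1.5-fold, which 0.894% of loci did upward in monosomes and 0.944% in polysomes. In total RNA, 9 of 10 were higher in *ppp-1(wrm15)*, by a median of 0.10, and *glp-1* was lower (-0.04). For translational efficiency all 10 differences were above 0, from 0.09 (*mex-3*) to 0.36 (*oma-2*). Each is a difference between 2 pooled values, without the spread between libraries. Of all loci, 52.2% lay above 0 in monosomes, 58.4% in polysomes, 54.7% in total RNA and 59.9% for translational efficiency. Among the 16 other regulated maternal mRNAs, 13 were above 0 in monosomes (median 0.21) and 14 in polysomes (median 0.16). The list of 28 other RNA-binding genes had 27 of 28 above 0 in monosomes (median 0.19) and 25 of 28 in polysomes (median 0.18). The germ granule and meiotic axis genes had medians of 0.02 in monosomes and 0.05 in polysomes, and the somatic list 0.01 and 0.06.

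The genes whose profile over the 9 groups came nearest to the median profile of the 10 were *ife-5*, *ced-6*, Y39G10AR.9, Y17G7B.8 and *wht-2*. Likeness was the root mean square difference of log2 FPKM, each gene centred on its own mean, over 10950 single-name loci with at least 1 FPKM in all groups. It was 0.069 for *ife-5*, which encodes a cap-binding eIF4E protein, and 0.089 for *wht-2*. Among the 10 themselves, *oma-1* (0.101) and *rme-2* (0.135) lay nearest to the median profile, and *spn-4* (0.770) and *pos-1* (0.976) farthest from it. *ife-5* was much less abundant, with 5.10 and 7.08 FPKM in polysomes of the mutants, against 5.07 FPKM in WT, and 11.4 FPKM in WT total RNA.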

How the data were processed

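Total, monosome and polysome RNA of 3 genotypes was sequenced after ribosomal RNA depletion. According to the study's methods and processing notes, the authors mapped reads to the WBcel235 genome with HISAT2 2.1.0, assembled transcripts with StringTie 1.3.4d, used Cuffmerge to merge them, and ran Cuffquant and Cuffdiff (Cufflinks 2.2.1) on the result. FPKM, the unit of the deposited values, were pooled by the authors into 1 value per group of 4 libraries. How libraries were normalized is not given in the sources used here. Beside FPKM, the table holds the authors' own comparisons (log2 fold changes, test statistics, p and q values), which were not used. FPKM hold no counts, so depth and its precision are unknown. The study's t-test over replicates needs values per library and was not run.

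Log2 ratios were computed without a pseudocount (Python 3.11.15, pandas 2.3.3) and set against all loci with at least 1 FPKM in the groups used. All 10 members passed this minimum. A change was counted at 1.5-fold or more, with no test. Gene structures and positions come from Ensembl's WBcel235 annotation. Named genes were the members, the extremes of each list, genes of a list past 1.5-fold in 1 direction in both mutants in total RNA or translational efficiency, and the 5 nearest profiles. The genes *cdc-25.3*, *med-1*, *pes-10*, *ceh-51*, *end-1*, *tbx-37* and *tbx-38*, the mutant values of *nos-2* and the polysome values of sperm genes were added after their values were seen. Total RNA and translational efficiency of the sperm genes that met this rule are given in the closing section. The members and lists were chosen with earlier results of these data known.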

Additional observations from a re-analysis of the deposited data

How the results depend on the processing

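The ratios of the 10 genes in WT and their changes in each mutant over WT were recomputed under other settings. The settings were 0.1 or 1 FPKM added, no minimum or a minimum of 5 FPKM, and no loci of joined names. Values were also centred on the median of all genes tested and, chosen after seeing the data, on the germ granule and meiotic axis genes. The direct comparison of the alleles, the changes of monosome over total RNA and the gene lists were not recomputed. A median was taken to have moved past 0.585 on the log2 scale, since the spread between replicates was not used. None of the medians of the 10 genes moved that far under these settings. Only the median for polysome over total RNA in WT (-1.13) was itself past 0.585, so for the others this bar says little. The largest shift was 0.424, for monosome over total RNA in WT with centring on the germ granule and meiotic axis genes (-0.15, against -0.58 without centring). Centring on all genes tested turned the near-0 medians of *ppp-1(wrm10)* from below to above 0 in polysomes (0.03) and monosomes (0.01), and centring on the germ granule and meiotic axis genes did so too (0.06 and 0.04). Counts at 1.5-fold differed by 1 under centring on all genes tested: 9 members, not 8, were past it for polysome over total RNA in WT, 4, not 5, for monosome over total, and 5, not 4, for polysome over monosome. Centring on the germ granule and meiotic axis genes gave 8, 4 and 5. Counts also depended on the threshold. At a lower threshold (log2 of 0.32), 1 member differed between *ppp-1(wrm10)* and WT in total RNA (21.3% of all loci), 3 in polysomes (21.7%), 1 in monosomes (26.1%) and 2 in translational efficiency (14.5%). In *ppp-1(wrm15)*, 2 differed in total RNA (23.8% of all loci), 6 in polysomes (23.6%), 7 in monosomes (29.8%) and 3 in translational efficiency (15.9%). At 2-fold, 0 members differed in polysomes (4.22%), monosomes (6.22%) or translational efficiency (0.751%) of *ppp-1(wrm15)*. No paired analysis was possible because the table holds 1 pooled value per group, and for the same reason no replicate could be left out.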

Other observations

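Among sperm genes, *spe-38*, which encodes a membrane protein that sperm need for fertilization, had 7.12 FPKM in *ppp-1(wrm10)* total RNA and 6.61 FPKM in *ppp-1(wrm15)* total RNA, against 1.14 FPKM in WT total RNA. Its log2 changes were 2.65 and 2.54, and those of *spe-9*, another gene sperm need for fertilization, were 0.93 and 0.78. The change in translational efficiency was -0.69 and -0.67 for the major sperm protein gene *msp-142* and -0.68 and -0.60 for the sperm phosphatase gene *gsp-3*. In WT animals, the polysome over total ratios of the sperm list ran from *spe-42*, needed for fertilization (-0.26), to the major sperm protein gene *msp-31* (1.13). Major sperm protein genes are near-identical copies, so reads may be shared between them.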
